A study of Mus musculus with 10 samples.

Results

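The VEGF system and the endothelium were described in the uterus of HSD17B1TG and wild-type (WT) mice through 10 genes chosen by symbol from a table of 29268 genes. The 10 genes are 4 ligands (*Vegfa*, *Vegfb*, *Vegfc* and *Pgf*), 3 receptors (*Kdr*, *Flt1* and *Flt4*) and 3 endothelial markers (*Pecam1*, *Cdh5* and *Emcn*), and all 10 passed the filter on low counts. RNA was sequenced from the uterus of 5 HSD17B1TG and 5 WT females aged 4 months, and each mouse gave 1 library. All mice were of the FVB/N strain. HSD17B1TG mice were heterozygous for the cDNA of human *HSD17B1* under the CMV-enhanced chicken beta actin promoter, which drives it in all tissues and not in the uterus alone, and the human cDNA was not counted in the mouse annotation. *HSD17B1* codes for an enzyme that converts estrone to the stronger estrogen estradiol. The study used the line as a model of adenomyosis, the growth of endometrial glands into the uterine muscle. HSD17B1TG females do not cycle, while WT mice were taken at random phases of the cycle, so the genotype and the loss of the cycle cannot be told apart. No batch, date or litter is named in the labels.

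VEGF-A is the main growth factor of blood vessel endothelium, and hypoxia and estrogen are known to raise its transcription in the uterus, where vessels grow and regress with every cycle. It binds the receptor KDR (VEGFR2), which carries most of the growth signal, and FLT1 (VEGFR1), which binds more tightly, signals weakly and so acts largely as a decoy. VEGF-B and PlGF, the product of *Pgf*, bind FLT1, while VEGF-C acts mainly through FLT4 (VEGFR3), the receptor that marks lymphatic endothelium in the adult. *Pecam1*, *Cdh5* and *Emcn* code for surface proteins of endothelial cells: the adhesion molecule CD31, the cadherin of endothelial junctions, and endomucin, which is typical of capillaries and veins.

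Each mouse had between 14817228 and 23271988 counts. The lowest count of a member in a mouse was 6, for *Pgf* in TG5, and the highest 7012, for *Vegfa* in WT5. The mice of a genotype carry the numbers 1 to 5 (TG1, WT1 and so on). Levels are given as deposited FPKM, fragments scaled by gene length and by a value for each mouse, which can be compared between genes. That value was not the total count of the mouse but 0.854 (TG5) to 1.16 (WT2) times it, 0.854 to 1.002 times in HSD17B1TG and 0.991 to 1.16 times in WT. Differences between the genotypes are log2 fold changes of counts (HSD17B1TG minus WT) from edgeR's quasi-likelihood test, with p-values adjusted over all 16993 genes tested. Markers of uterine epithelium, stroma, smooth muscle and endothelium were present, but of the endothelial list *Tm4sf18* was not analysed and *Sox11*, at 0 FPKM in 4 mice, was too low to be tested. In bulk RNA, fewer cells of a type and less RNA per cell cannot be told apart.

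None of the 10 members passed edgeR's test at an adjusted p under 0.05. In the same test 3.34% of all genes rose in HSD17B1TG, 2.81% fell, and 6.16% passed in either direction. Nor did a member pass the thresholds of the study (adjusted p under 0.05, fold change over 2 and mean FPKM over 1 in either group) in edgeR, which 4.24% of genes did. The study applied them to DESeq2, and in DESeq2 as run here *Flt4* and *Emcn* passed them, among 1572 of 21712 genes. Of the 10 members, 2 missed the adjusted p of 0.05 narrowly in edgeR, *Emcn* (adjusted p = 0.0513 in edgeR) and *Flt4* (adjusted p = 0.0529 in edgeR). By an unadjusted p under 0.05, 5 of the 10 differed (*Vegfa*, *Flt1*, *Flt4*, *Cdh5* and *Emcn*), against 26.1% of all genes. The Wald test of DESeq2 passed *Flt4* and *Emcn*, against 12.9% of the genes it gave an adjusted p, and limma's voom with sample quality weights passed 5 members (*Kdr*, *Flt1*, *Flt4*, *Cdh5* and *Emcn*), against 19.3% of all genes. The FPKM ranges of the 2 genotypes overlapped at all 10 members, and they did not overlap at 6.69% of all genes. Of the 10 log2 fold changes, 8 were below 0, and their median was -0.58, beside a median of 0.0021 over all genes tested, of which 50.2% were above 0.

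**Figure D1:**
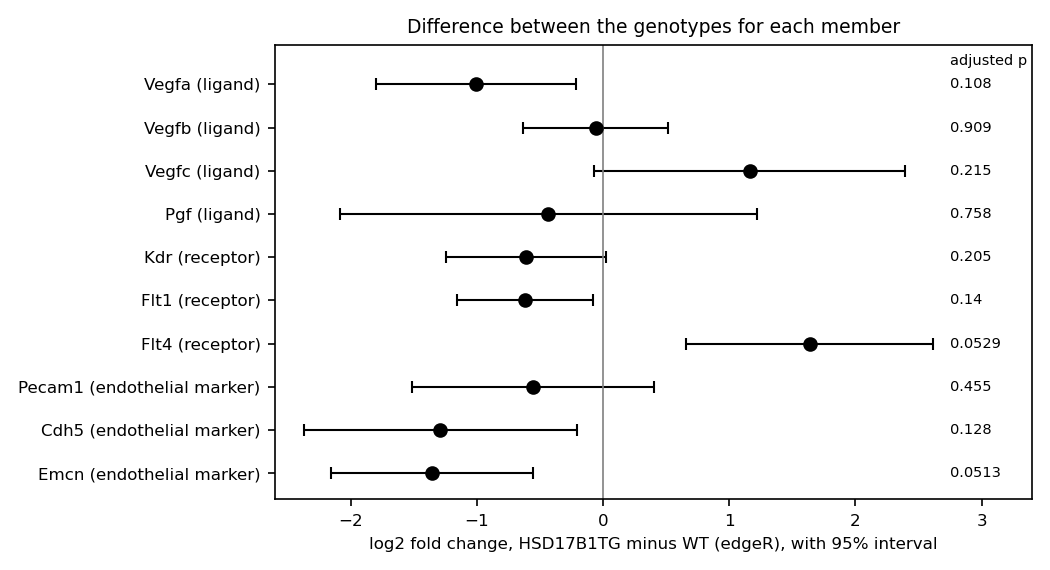
Log2 fold change of each member (HSD17B1TG minus WT, n = 5 mice each) on the horizontal axis, as points with the 95% interval of edgeR's test. The adjusted p stands at the right. *Flt4* and *Vegfc* lie above 0 and the other 8 members below, and every adjusted p is above 0.05.

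The stretch of genome just before the RefSeq start is shown for a ligand, a receptor and a marker that had lower means in HSD17B1TG, to set their base composition side by side. The sequences are from RefSeq (build GRCm38.p6), 5′ to 3′ on the strand of the gene, and capitals mark motif matches on either strand.
Vegfa: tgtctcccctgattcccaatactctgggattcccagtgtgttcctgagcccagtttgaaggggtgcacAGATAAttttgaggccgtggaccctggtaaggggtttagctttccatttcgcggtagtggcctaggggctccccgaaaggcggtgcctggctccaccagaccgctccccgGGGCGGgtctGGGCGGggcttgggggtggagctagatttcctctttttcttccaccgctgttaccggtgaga
Kdr: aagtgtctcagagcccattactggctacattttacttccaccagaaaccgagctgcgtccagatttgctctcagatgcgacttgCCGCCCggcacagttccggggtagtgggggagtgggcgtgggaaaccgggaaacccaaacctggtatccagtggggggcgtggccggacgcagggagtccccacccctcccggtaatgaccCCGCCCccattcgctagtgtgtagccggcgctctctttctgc
Emcn: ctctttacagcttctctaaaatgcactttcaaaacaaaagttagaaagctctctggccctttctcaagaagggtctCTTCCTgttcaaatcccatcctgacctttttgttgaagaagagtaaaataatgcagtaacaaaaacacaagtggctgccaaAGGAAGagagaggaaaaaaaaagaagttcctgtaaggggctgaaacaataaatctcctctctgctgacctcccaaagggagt
The *Vegfa* sequence is chr17:46032378-46032627 (minus strand), that of *Kdr* chr5:75978459-75978705 (minus strand) and that of *Emcn* chr3:137340828-137341066 (plus strand). Bases that GENCODE M21 places in an exon were left out (3 for *Kdr* and 11 for *Emcn*). The GC box, with the letters GGGCGG, was found in 32.7% of all windows of this length. *Vegfa* had 2 GC boxes, 72 and 62 bases before the start, and *Kdr* had 2, 166 and 45 bases before. *Emcn* had no GC box but 2 copies of the ETS core AGGAAG, 174 and 93 bases before the start, a motif in 29.5% of all windows. A GATA core, AGATAA, stood 182 bases before the start of *Vegfa*, and 9.99% of all windows held one. The *Emcn* window held 40.8% G and C, against 59.2% for *Vegfa*, 61.6% for *Kdr* and a median of 52.4% over 32851 windows. The TATA box TATAAA, present in 12.4% of all windows, was found among the members at *Flt1* alone. The hypoxia response core ACGTG was in 16.6% of all windows, and among the members it was found only in a further window of *Vegfa* that lies inside the gene. No member window held the palindromic estrogen response element, which 0.0639% of all windows did. Windows were given for 8 members, not for *Pecam1* and *Cdh5*, and a match of letters is no evidence of binding.

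*Vegfa*, the ligand of KDR and FLT1, had the highest mean of the members in both genotypes. The gene (ENSMUSG00000023951) lies on the minus strand of chromosome 17 from 46016993 to 46032369 (GRCm38). Its FPKM were 30.9, 44.7, 23.4, 15.9 and 13.7 in TG1 to TG5. The WT mice, WT1 to WT5, had 60.3, 52.0, 34.0, 31.7 and 79.9. Thus 4 of the 5 HSD17B1TG mice were below every WT mouse, and TG2 was above WT3 and WT4. The means were 25.7 ± 12.6 FPKM in HSD17B1TG and 51.6 ± 19.9 in WT (SD, n = 5 each). The difference was 2.01-fold (log2 -1.01, SE 0.36, 95% interval -1.80 to -0.22), which did not pass the test (adjusted p = 0.108 in edgeR, 0.0602 in DESeq2).

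*Vegfc*, the ligand of FLT4, was low in both genotypes, and its higher mean in HSD17B1TG came from 2 mice. Its FPKM were 5.89 in TG1 and 4.41 in TG4, while TG2, TG3 and TG5 had 1.55, 0.760 and 1.23. The WT mice lay between 0.847 and 1.83, with a median of 0.937, so TG1 and TG4 alone were above the WT range. The log2 fold change of 1.16 (SE 0.56, adjusted p = 0.215 in edgeR) was 0.69 without TG1. Without TG1 and TG4, a choice made after the data were seen, it was -0.06. The gene (ENSMUSG00000031520) lies on chromosome 8 from 54077606 to 54187096.

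The 2 ligands that bind FLT1 but not KDR had the smallest differences. *Vegfb* (chromosome 19 from 6982473 to 6987651), a ligand with little angiogenic activity in most tissues, had 20.7 ± 7.79 FPKM in HSD17B1TG and 21.5 ± 4.46 in WT (SD, n = 5 each). Its log2 fold change was -0.06 (95% interval -0.63 to 0.51, adjusted p = 0.909 in edgeR). TG1 and TG4 were again the highest, with 29.1 and 29.2 FPKM, and the other 3 HSD17B1TG mice had 13.1 to 16.2. *Pgf* (chromosome 12 from 85166635 to 85177790), named for the placenta, had 1.91 ± 1.03 FPKM in HSD17B1TG and 2.57 ± 2.82 in WT. The WT mean rested on WT3, with 7.56 FPKM against 0.981 to 2.02 in the other WT mice. The log2 fold change of *Pgf* was -0.44 over all mice and 0.50 without WT3, and its 95% interval ran from -2.09 to 1.22.

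**Figure D2:**
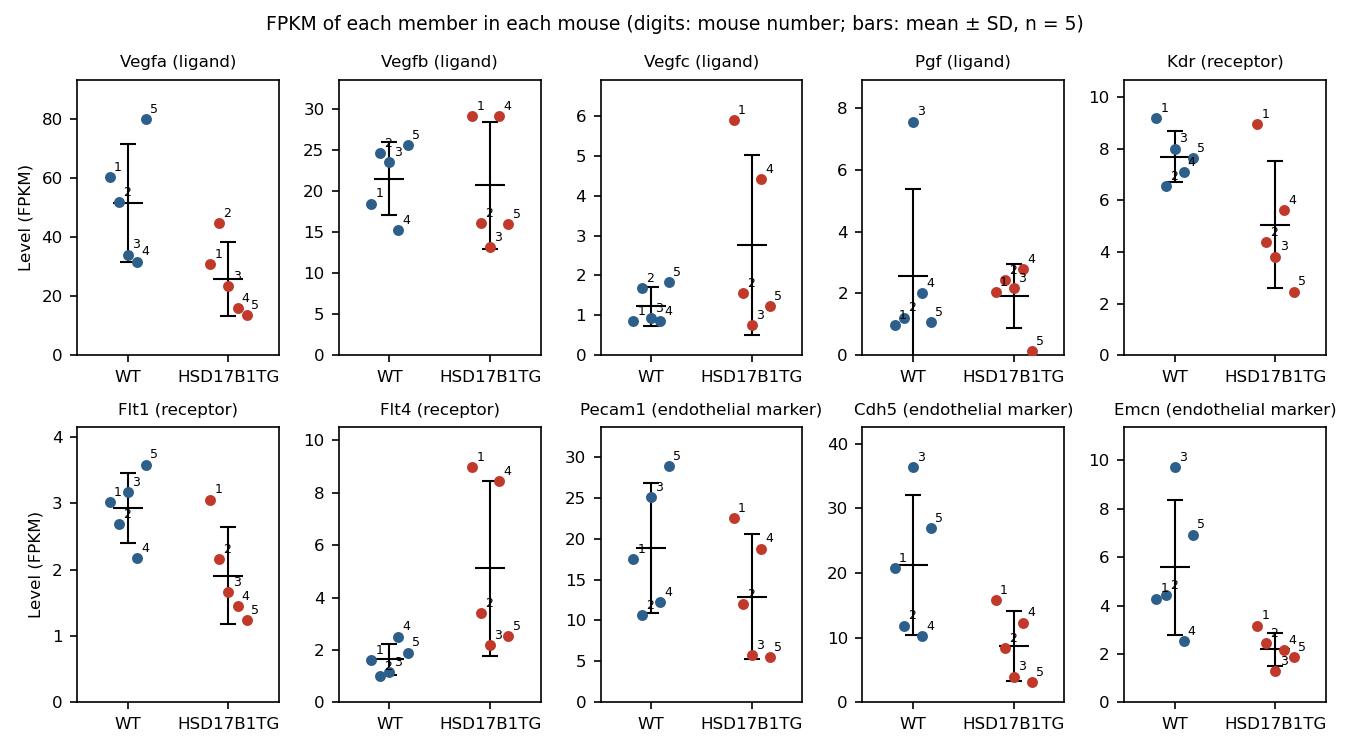
FPKM of the 10 members in each mouse, WT in blue and HSD17B1TG in red, 1 panel per gene with its own axis from 0. Digits are mouse numbers and bars the mean ± SD of 5 mice (the lower bar of *Pgf* in WT is cut at 0). There, 4 HSD17B1TG mice lie below the WT range at *Vegfa*, *Kdr*, *Flt1* and *Emcn*, 4 lie above it at *Flt4*, and TG1 is the highest HSD17B1TG mouse in 7 panels.

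Of the receptors, *Kdr* and *Flt1* had lower means in HSD17B1TG and *Flt4* a higher one. *Kdr* (ENSMUSG00000062960, minus strand of chromosome 5 from 75932827 to 75978458) had 8.94, 4.38, 3.81, 5.62 and 2.46 FPKM in TG1 to TG5. In WT1 to WT5 it had 9.17, 6.54, 7.99, 7.08 and 7.63 FPKM. TG1 was within the WT range and the other 4 HSD17B1TG mice were below it. The spread was wider in HSD17B1TG, with a coefficient of variation of 48.7% against 12.99% in WT. The log2 fold change was -0.61 (SE 0.29, adjusted p = 0.205 in edgeR, and 0.0313 in voom). Without TG1 it was -0.92 (adjusted p = 0.0305 in edgeR), and without both TG1 and TG4 -1.12 (adjusted p = 0.0230 in edgeR). TG1 and TG4 had the most *Kdr* of their group, so leaving them out lowers its mean by itself. The pair was chosen after the data were seen. Over all genes more passed in these fits too, 2094 of 17272 without TG1 and 2012 of 17686 without both, against 1046 of 16993.

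*Flt1* (minus strand of chromosome 5 from 147561604 to 147726011), the decoy receptor, also had its highest HSD17B1TG level in TG1 and its lowest in TG5. Its FPKM were 3.05, 2.16, 1.66, 1.45 and 1.24 in TG1 to TG5. WT1 to WT5 had 3.02, 2.69, 3.17, 2.17 and 3.58. TG1 was within the WT range and the other 4 were below it, TG2 narrowly (2.158 FPKM against 2.169 in WT4). The log2 fold change was -0.62 (SE 0.25, adjusted p = 0.1399 in edgeR, and 0.0386 in voom) and -0.85 without TG1 (adjusted p = 0.0305 in edgeR).

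*Flt4*, the receptor of VEGF-C, had the largest difference of the members on the log2 scale in edgeR with all mice. The gene (ENSMUSG00000020357) lies on the plus strand of chromosome 11 from 49609263 to 49652739. It had 8.98, 3.42, 2.20, 8.45 and 2.52 FPKM in TG1 to TG5. In WT1 to WT5 it had 1.61, 1.01, 1.17, 2.51 and 1.90 FPKM. TG1 and TG4 stood far above all WT mice, TG2 less far above them, TG5 barely so (2.521 FPKM against 2.512 in WT4), and TG3 within their range. The means were 5.11 ± 3.32 FPKM in HSD17B1TG and 1.64 ± 0.602 in WT (SD, n = 5 each). The difference was 3.11-fold (log2 1.64, SE 0.44, 95% interval 0.66 to 2.62). It missed the threshold in edgeR (adjusted p = 0.0529) and passed it in DESeq2 (adjusted p = 0.00540) and in voom (adjusted p = 0.0352). With 1 mouse left out, its adjusted p in edgeR ran from 0.0321 (without WT4) to 0.128 (without WT2), and it passed only without TG3 (adjusted p = 0.0337 in edgeR) or WT4. Without TG1 and TG4 the log2 fold change was 0.73 (adjusted p = 0.158 in edgeR).

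Smooth muscle markers varied between mice, within a genotype partly alongside *Flt4*. The summed FPKM of 15 such markers were 8972, 3069, 2198, 3871 and 1179 in TG1 to TG5. WT1 to WT5 had sums of 2019, 733, 579, 7147 and 2604. The WT mouse with the highest sum, WT4, was also the WT mouse with the most *Flt4*, and TG1 and TG4 had the highest sums and the most *Flt4* in HSD17B1TG. Between genotypes the order differed: WT4, with the sum of 7147, had 2.51 FPKM of *Flt4*, and TG4, with 3871, had 8.45. TG3 had a higher sum than TG5 but less *Flt4* (2.20 against 2.52 FPKM). None of the 15 passed edgeR's test, nor had any an unadjusted p under 0.05 or passed DESeq2's test, and their median log2 fold change was 0.54 (0.04 without TG1 and 1.23 without WT4). The part of muscle content in the *Flt4* values was not tested.

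*Emcn*, the endomucin gene, had the lowest p-value of the members in edgeR with all mice. The gene (ENSMUSG00000054690) lies on the plus strand of chromosome 3 from 137341067 to 137432185. Its FPKM were 3.17, 2.44, 1.30, 2.16 and 1.88 in TG1 to TG5. In WT1 to WT5 they were 4.29, 4.45, 9.73, 2.52 and 6.93. Only TG1 was inside the WT range, above WT4. The means were 2.19 ± 0.694 FPKM in HSD17B1TG and 5.59 ± 2.80 in WT (SD, n = 5 each), a 2.56-fold difference (log2 -1.36, SE 0.36, 95% interval -2.16 to -0.56). It missed the threshold in edgeR (adjusted p = 0.0513) and passed it in DESeq2 (adjusted p = 0.00617) and in voom (adjusted p = 0.0250). It also passed in edgeR without TG1 (adjusted p = 0.0344), without WT4 (adjusted p = 0.0147), with upper quartile normalization (adjusted p = 0.0468) and with no filter on low counts (adjusted p = 0.0493). It did not pass in the other 8 fits without 1 mouse (adjusted p in edgeR up to 0.114, without TG5), with RLE normalization (adjusted p = 0.0516 in edgeR) or in limma on log2(FPKM + 1) (adjusted p = 0.0650).

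*Cdh5*, the junctional cadherin, had a lower mean in HSD17B1TG with a wide spread in both genotypes. Its FPKM were 15.8, 8.37, 3.97, 12.3 and 3.13 in TG1 to TG5. WT1 to WT5 had 20.8, 11.9, 36.3, 10.2 and 27.0. TG2, TG3 and TG5 were below the WT range. The log2 fold change was -1.29 (SE 0.49, adjusted p = 0.128 in edgeR, and 0.0466 in voom), and it was -2.04 without TG1 and TG4 (adjusted p = 0.0404 in edgeR). TG1 and TG4 had the most *Cdh5* of their group and were left out after the data were seen. The gene lies on chromosome 8 from 104101625 to 104144511 and overlaps an antisense gene, *Gm29682*, but no exon of it.

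*Pecam1*, the CD31 gene (minus strand of chromosome 11 from 106654217 to 106750628), differed less. It had 22.5, 11.96, 5.77, 18.8 and 5.54 FPKM in TG1 to TG5. The level was 17.5, 10.7, 25.1, 12.2 and 28.8 FPKM in WT1 to WT5. TG3 and TG5 alone were below the WT range, and TG1 was above 3 of the WT mice. The log2 fold change was -0.55 (SE 0.43, 95% interval -1.51 to 0.41, adjusted p = 0.455 in edgeR), and -1.28 without TG1 and TG4.

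The HSD17B1TG mice differed from each other in a way that ran through most members. TG1 had the highest level of its group at 7 of the 10 members, and TG5 the lowest at 6 and TG3 at the other 4. The share of counts in mitochondrial genes was 5.74% in TG1, 6.87% in TG4 and 7.57% in TG5, against 1.94% in TG2, 2.49% in TG3 and 2.58 to 3.37% in WT, and its part in these differences was not tested. In WT, WT5 was the highest at 5 members and WT4 the lowest at 5. In order of mean FPKM, the HSD17B1TG uterus had *Vegfa*, *Vegfb*, *Pecam1*, *Cdh5*, *Flt4*, *Kdr*, *Vegfc*, *Emcn*, *Flt1* and *Pgf*, and each neighbouring pair overlapped in range. The WT order was *Vegfa*, *Vegfb*, *Cdh5*, *Pecam1*, *Kdr*, *Emcn*, *Flt1*, *Pgf*, *Flt4* and *Vegfc*. In WT, 2 steps of this order had no overlap, from *Vegfa* to *Vegfb* and from *Pecam1* to *Kdr*. *Flt4* was thus the last but one in WT and the fifth in HSD17B1TG, where its mean was next to that of *Kdr*.

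Ratios between members were taken within each mouse, so that the scaling between mice cancels. The amount and mix of vessel types can still enter them, since *Flt4* marks lymphatic endothelium and *Kdr* stands in the capillary list. The part of this mix in the ratios was not tested. Of 8 pairs compared with a two-sided exact permutation test, 2 separated all 5 HSD17B1TG mice from all 5 WT mice. The ratio of *Flt4* to *Kdr* FPKM was 1.00, 0.781, 0.576, 1.501 and 1.02 in TG1 to TG5. In WT1 to WT5 it was 0.175, 0.154, 0.146, 0.355 and 0.249. It was 4.57-fold higher in HSD17B1TG (difference of log2 2.19, exact p = 0.00794, adjusted over the 8 pairs 0.0317), where the p is the smallest that 5 mice against 5 allow. The ratio of *Pecam1* to *Cdh5* was 1.42, 1.43, 1.45, 1.52 and 1.77 in TG1 to TG5, and 0.840, 0.899, 0.691, 1.197 and 1.07 in WT1 to WT5. It was 1.64-fold higher in HSD17B1TG (difference of log2 0.71, exact p = 0.00794, adjusted over the 8 pairs 0.0317). The adjusted exact p of both stayed at 0.0317 without any 1 WT mouse and was 0.0635, above the threshold, without any 1 HSD17B1TG mouse. Without an HSD17B1TG mouse the genotypes still did not overlap at either ratio, with differences of log2 of 2.02 to 2.36 and 0.66 to 0.74. With so few mice the exact p moves in coarse steps, so the lost call does not show that a ratio rests on 1 mouse. Without TG1 and TG4 the differences of log2 were 1.92 and 0.74 (adjusted exact p = 0.143 for each), where 3 mice against 5 could not pass unless more than 2 of the 8 pairs reached the smallest p.

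The other 6 pairs did not pass. *Flt1* to *Kdr*, the decoy against the signalling receptor, differed by 0.06 on the log2 scale (adjusted exact p = 0.778). *Vegfa* to *Kdr* differed by -0.32 (adjusted exact p = 0.686), *Kdr* to *Cdh5* by 0.66 (adjusted exact p = 0.317) and *Emcn* to *Cdh5* by 0.12 (adjusted exact p = 0.778). For *Vegfc* to *Flt4* the difference was -0.63 (adjusted exact p = 0.349), and for *Pgf* to *Vegfa* it was 0.59 (adjusted exact p = 0.741).

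**Figure D3:**
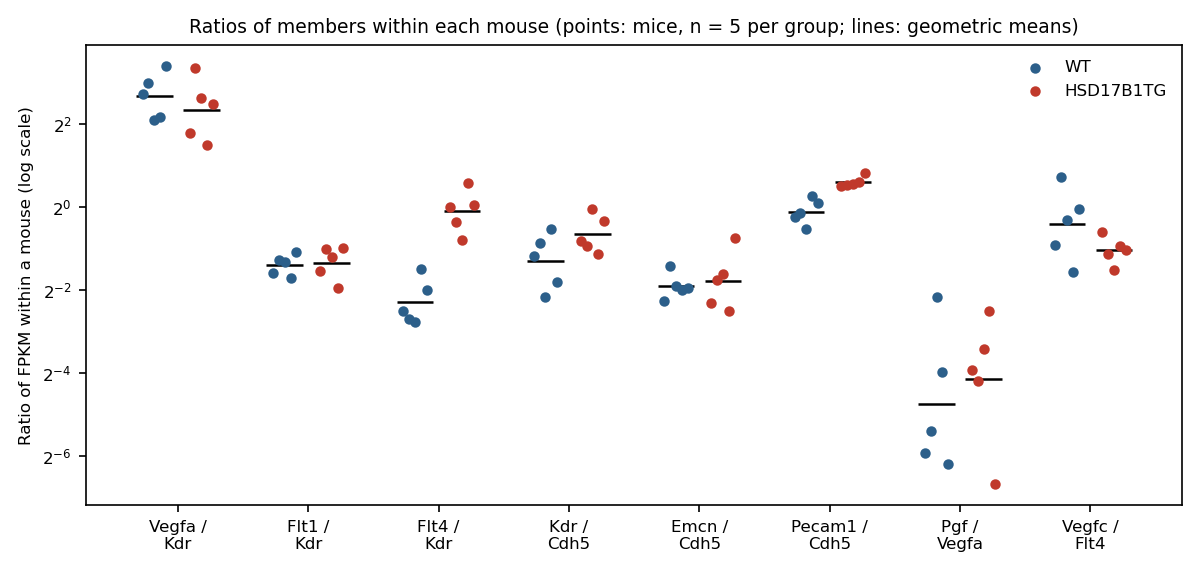
Ratio of the FPKM of 2 members within a mouse on a log axis, for 8 pairs, with 1 point per mouse (WT blue, HSD17B1TG red, n = 5 each) and the geometric mean as a line. The points of the genotypes are apart for *Flt4* to *Kdr* (0.576 to 1.501 in HSD17B1TG, 0.146 to 0.355 in WT) and for *Pecam1* to *Cdh5* (1.42 to 1.77 and 0.691 to 1.197), and overlap for the other 6 pairs.

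CD31 is also made by platelets and leucocytes, unlike the junctional cadherin. Of 15 leucocyte markers, 1 rose, *Laptm5* (16.2 ± 5.50 FPKM in WT and 39.6 ± 10.7 in HSD17B1TG, SD, n = 5 each, log2 1.28, adjusted p = 0.0312 in edgeR), and 13 had lower estimates. With 1 mouse left out, between 0 (in 6 of the 10 fits) and 6 (without WT4) leucocyte markers passed, and DESeq2 passed *Laptm5* as higher and 3 others (*Ptprc*, *Cd52* and *Il2rg*) as lower. Their summed FPKM was 93.3 to 125.5 in HSD17B1TG and 78.0 to 171 in WT. Of 6 genes of blood cells and platelets tested, 1 rose, *Itga2b*, the platelet integrin (log2 1.203, adjusted p = 0.0312 in edgeR), and it alone passed DESeq2. None of the 6 passed in 7 of the 10 fits without 1 mouse, and their summed FPKM overlapped (30.6 to 120.9 in HSD17B1TG and 37.6 to 169 in WT). The part of these cells in the *Pecam1* to *Cdh5* ratio was not tested.

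Most other endothelial markers had lower estimates in HSD17B1TG. Of 37 tested, 31 had lower estimates (median log2 fold change -0.67). In edgeR 4 (10.8%) fell, against 2.81% of all genes, and 1 (2.70%) rose, against 3.34%. *Adgrl4*, an adhesion receptor of vessel sprouts, fell from 9.31 ± 3.13 FPKM in WT to 3.27 ± 1.06 in HSD17B1TG (SD, n = 5 each, log2 -1.51, adjusted p = 0.0255 in edgeR). *Cd34*, which stromal cells also express, fell from 69.8 ± 28.3 to 19.96 ± 10.2 FPKM (log2 -1.81, adjusted p = 0.0324 in edgeR). *Cd93*, a lectin-like surface protein, fell from 18.3 ± 7.69 to 5.73 ± 2.35 FPKM (log2 -1.68, adjusted p = 0.0345 in edgeR), and the fourth was *S1pr1*, a receptor for sphingosine 1-phosphate (log2 -1.1997, adjusted p = 0.0440 in edgeR). Against them *Sox7*, a transcription factor of endothelium, rose from 7.50 ± 3.64 to 31.4 ± 15.2 FPKM (log2 2.07, adjusted p = 0.0297 in edgeR). DESeq2 passed 12 of the 38 in the table, 11 of them lower. The count of 5 was between 0 and 11 when 1 mouse was left out, with 11 without TG1 or WT4, and 0 without TG2, TG4, TG5, WT2, WT3 or WT5.

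Markers of stroma and epithelium were counted in the same test. Of 15 stromal markers, 7 fell, among them *Hand2* (log2 -1.998), *Pdgfra* (log2 -1.995) and *Hoxa11* (log2 -2.36), with a list median of -1.18, and between 0 (without TG5) and 10 (without TG1) passed the test when 1 mouse was left out. DESeq2 passed 8 stromal markers, all lower. Of 15 epithelial markers, 1 rose, *Prom1* (log2 1.87, adjusted p = 0.0324 in edgeR), and 14 had higher estimates, with a median of 1.24. DESeq2 passed 5 of them as higher, and with 1 mouse left out edgeR passed between 0 (in 7 of the 10 fits) and 7 (without WT4), and 6 without TG1. The summed FPKM of the stromal list was 938 to 3532 in HSD17B1TG and 3202 to 3981 in WT. That of the epithelial list was 1150 to 5362 in HSD17B1TG and 885 to 2481 in WT, and no marker of either list was at 0. TG1, the HSD17B1TG mouse with the most *Kdr*, *Pecam1*, *Cdh5* and *Emcn*, had the highest stromal and the lowest epithelial sum of its group. The part of stroma and epithelium in the lower endothelial values was not tested.

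Lymphatic endothelial genes did not share one direction. Of 12 tested, 2 fell, *Thy1* (log2 -2.08, adjusted p = 0.0415 in edgeR) and *Sned1* (log2 -1.68, adjusted p = 0.0445 in edgeR), a surface and a matrix protein that fibroblasts also make. The other lymphatic genes did not pass, but 8 of the 12 had higher estimates, and the median of the list was 1.102. With 1 mouse left out, between 0 (in 7 of the 10 fits) and 7 (without WT4) of the lymphatic genes passed. The median of their log2 CPM, each gene centred on its mean over the mice, was 1.43, 0.39, -0.43, 1.425 and 0.28 in TG1 to TG5, and -0.72, -1.03, -1.31, 0.32 and -0.03 in WT1 to WT5. The same median of the smooth muscle markers was 1.84, 0.45, -0.07, 0.82 and -0.85 in TG1 to TG5, and -0.21, -1.54, -1.87, 1.44 and 0.12 in WT1 to WT5. TG1 was the highest and WT2 and WT3 the lowest in both, while TG5 was below the mean in muscle and above it in lymphatic genes, and the part of muscle content in the lymphatic values was not tested. *Prox1*, the transcription factor that sets lymphatic identity, had 1.48 ± 0.978 FPKM in HSD17B1TG and 0.285 ± 0.239 in WT (SD, n = 5 each, log2 2.38, adjusted p = 0.0581 in edgeR and 0.00325 in DESeq2). Among the HSD17B1TG mice it was highest in TG4, with 2.87 FPKM, and in TG1, with 2.07, the mice with the most *Flt4*. *Tbx1* (log2 2.28, adjusted p = 0.0562 in edgeR) and *Foxc2* (log2 2.35, adjusted p = 0.0723 in edgeR), also lymphatic transcription factors, had the same 2 mice on top. *Lyve1*, the hyaluronan receptor of lymphatic vessels, had a log2 fold change of 1.27 (adjusted p = 0.239 in edgeR). DESeq2 passed 7 lymphatic genes as higher, of which *Ccl21a* and *Cldn11* were not tested in edgeR, and the same 2 as lower.

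**Figure D4:**
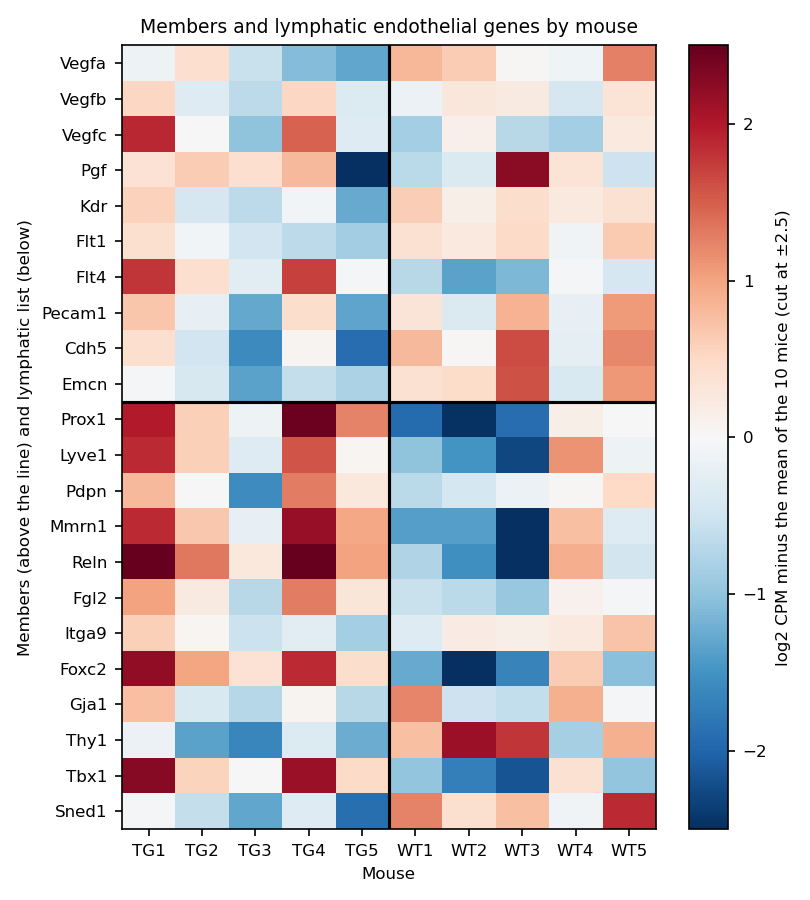
Log2 CPM of each gene minus its mean over the 10 mice (color, cut at ±2.5), with mice in columns, the 10 members above the line and the 12 lymphatic genes tested below it. TG1 and TG4 are dark red at *Vegfc*, *Flt4*, *Prox1*, *Mmrn1*, *Reln*, *Foxc2* and *Tbx1*, while *Thy1* and *Sned1* are lower in HSD17B1TG.

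The other endothelial classes gave small counts. Of 16 arterial genes 2 rose, *Dll4*, the Notch ligand of tip and arterial cells (4.69 ± 0.993 FPKM in WT and 11.8 ± 3.54 in HSD17B1TG, SD, n = 5 each, log2 1.33, adjusted p = 0.0219 in edgeR), and *Unc5b*, a netrin receptor (log2 1.39, adjusted p = 0.0246 in edgeR). Of 10 venous genes 1 fell, *Aplnr*, the apelin receptor (19.8 ± 11.6 FPKM in WT and 4.56 ± 2.33 in HSD17B1TG, log2 -2.12, adjusted p = 0.0379 in edgeR). Of 14 capillary genes, *Kdr* among them, 2 fell, *Rgcc*, a regulator of the cell cycle (log2 -1.94, adjusted p = 0.0234 in edgeR), and *Tcf15*, a transcription factor (log2 -1.95, adjusted p = 0.0446 in edgeR). Another capillary gene, *Car4*, was at 0 counts in all HSD17B1TG mice and at 0.269 to 19.6 FPKM in WT, the highest in WT5, and did not pass (adjusted p = 0.0517 in edgeR). None of 15 pericyte genes passed edgeR's test, and 4 had an unadjusted p under 0.05, near the share of all genes (26.1%). DESeq2 passed *Rgs5* (log2 -1.45, adjusted p = 0.0555 in edgeR and 0.00776 in DESeq2). The medians were -0.06 for the arterial, -0.31 for the venous, -0.59 for the capillary and -0.13 for the pericyte list. With 1 mouse left out, the arterial median ran from -0.18 (without TG1) to 0.03 (without WT5), the pericyte median from -0.42 (without TG1) to 0.03 (without WT5) and the venous median from -0.37 (without WT2) to -0.13 (without TG5). In those fits the genes past the test numbered 0 to 3 in the arterial, 0 to 2 in the venous, 0 to 5 in the capillary and 0 to 2 in the pericyte list, and all 4 counts were 0 without TG4, TG5 or WT5. DESeq2 passed 2 arterial genes, both higher, 3 venous (2 lower) and 5 capillary genes (3 lower).

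Of 40 other genes of the VEGF system, 2 rose and 1 fell, and 28 had higher and 12 lower estimates, with a median log2 fold change of 0.14. With 1 mouse left out, between 1 (in 7 of the 10 fits) and 8 (without TG1) passed, and DESeq2 passed 3 as higher and 3 as lower. *Src*, a kinase that KDR activates, rose from 14.3 ± 4.22 to 25.4 ± 3.64 FPKM (SD, n = 5 each, log2 0.83, adjusted p = 0.0364 in edgeR). *Shb*, an adaptor that binds KDR, rose by 0.86 on the log2 scale (adjusted p = 0.0379 in edgeR). *Grb10*, an adaptor of receptor kinases, fell from 22.3 ± 6.98 to 7.41 ± 1.199 FPKM (log2 -1.59, adjusted p = 0.0153 in edgeR), and it passed whichever mouse was left out. The other ligand *Vegfd* had 10.7 ± 8.13 FPKM in HSD17B1TG and 9.88 ± 5.49 in WT (log2 0.11, adjusted p = 0.924 in edgeR). The co-receptors *Nrp1* and *Nrp2* had log2 fold changes of -0.77 (adjusted p = 0.152 in edgeR) and 0.45 (adjusted p = 0.524 in edgeR).

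Genes that VEGF is known to induce in endothelium went both ways. Of 23 tested, 2 rose, *Dll4* and *Dusp5*, a MAP kinase phosphatase (1.92 ± 0.548 FPKM in WT and 5.69 ± 2.25 in HSD17B1TG, log2 1.57, adjusted p = 0.0263 in edgeR), and 1 fell, *Aplnr*, with 15 lower estimates and a median of -0.44. Without WT5 that median was -0.07 and without WT1 -0.29, and between 0 (without TG4, TG5, WT3 or WT5) and 5 (without TG1 or WT4) passed when 1 mouse was left out. DESeq2 passed 2 as higher and 3 as lower. Of 27 regulators and targets of the hypoxia response, which drives *Vegfa* in many tissues, 3 rose (11.1%), with a median of 0.57, and DESeq2 passed 8 as higher and 1, *Hif3a*, as lower. The 3 that passed edgeR were *Pfkfb4*, a glycolytic regulator (2.34 ± 0.260 and 4.17 ± 0.433 FPKM, log2 0.83, adjusted p = 0.0219 in edgeR), *Egln1*, the oxygen sensor that marks HIF for breakdown (log2 0.84, adjusted p = 0.0328 in edgeR), and *Kdm3a*, a histone demethylase (log2 0.73, adjusted p = 0.0366 in edgeR). Of these 27 genes, 19 had higher estimates in HSD17B1TG, where *Vegfa* had a lower mean that did not pass. The part of the hypoxia response in the *Vegfa* values was not tested. Without WT4, 11 of the 27 passed, and none did without TG2, TG4, WT2, WT3 or WT5.

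**Figure D5:**
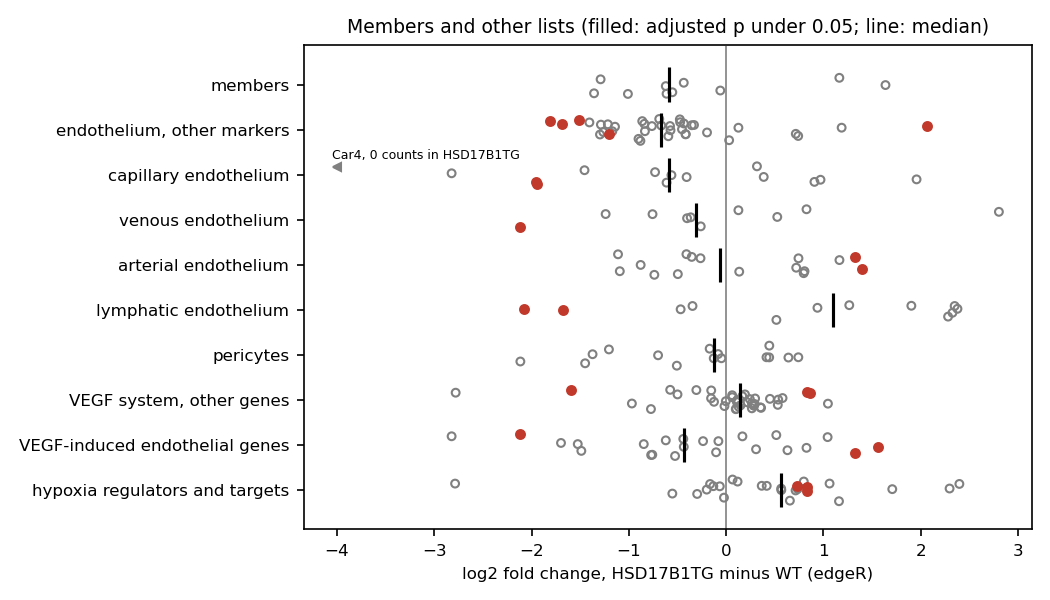
Log2 fold change (HSD17B1TG minus WT, edgeR) of each gene tested in the members and in 9 lists, with 1 circle per gene, filled where the adjusted p was under 0.05, and the median as a line. *Car4*, with 0 counts in HSD17B1TG, is drawn as an arrow at the left edge, and vertical positions within a list are arbitrary. The median is -0.58 for the members, -0.67 for the other endothelial markers, 1.102 for the lymphatic list and 0.57 for the hypoxia list.

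The genes closest in pattern were found by the root mean square difference of log2 CPM over the 10 mice, after each gene was centred on its mean. For *Kdr* these were *Man1c1*, *Npr2* and *Vwa1*, at 0.146, 0.146 and 0.151. For *Pecam1* they were *Gm45605*, *Mmrn2* and *C1ra*, at 0.0937, 0.121 and 0.158, of which *Mmrn2* is itself an endothelial gene. For *Vegfa* they were *Gm12319*, *Micall1* and *Mertk*, at 0.271, 0.275 and 0.313, and *Micall1* (log2 -0.94, adjusted p = 0.0415 in edgeR) and *Mertk* (log2 -1.19, adjusted p = 0.0255 in edgeR) fell. For *Flt4* they were *Adgrg3*, *4930562C15Rik* and *Pbxip1*, at 0.304, 0.325 and 0.330, and none of these 3 passed the test. All 10 mice enter these distances, so the difference between the genotypes is part of the likeness.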

How the data were processed

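The authors sequenced uterine RNA as paired-end reads and, per the submitters' processing notes, mapped them with HISAT2 2.0.5, to the Ensembl 94 annotation of GRCm38. Which program counted the reads, and whether by strand, is not given in the sources used here. The deposited table lists for every mouse raw counts per gene, counts divided by a size factor (not used) and the FPKM that the authors computed with the gene length of the table. The authors' own comparison (log2 fold changes and p-values) and their tables of enriched terms were not used.

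The quasi-likelihood test of edgeR 4.0.16 (R 4.3.3) was run on these counts after its filterByExpr and TMM steps, with Benjamini-Hochberg adjustment. Alternatives were DESeq2 1.42.0, voom of limma 3.58.1, limma on log2(FPKM + 1), other normalizations, no filter, and each mouse left out. Ratios of FPKM were compared with an exact permutation test. The scripts' tests were checked on simulated data. A count of 3 equals 0.129 to 0.202 CPM per mouse and covers counting error only. Positions were compared with GENCODE M21.

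The members and the 14 lists were chosen with earlier results of these data known. Genes named are the members, up to 3 genes per list and direction past the test with the lowest p, and the 3 genes nearest in pattern to *Vegfa*, *Kdr*, *Pecam1* and *Flt4*. *S1pr1*, *Prox1*, *Tbx1*, *Foxc2*, *Lyve1*, *Mmrn1*, *Reln*, *Ccl21a*, *Cldn11*, *Car4*, *Rgs5*, *Vegfd*, *Nrp1*, *Nrp2*, *Ptprc*, *Cd52*, *Il2rg*, *Hif3a*, *F3* and *Nr4a1* were named after their values were seen. Some genes stand in more than 1 list.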

Additional observations from a re-analysis of the deposited data

Results flagged for a closer look

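Within each genotype, a mouse was singled out where its gap to the nearest other mouse took up most of the range of its group, a criterion that chance meets in about 1 of 20 groups, and 6 of the 64 groups examined met it. *Pgf* had 0.133 FPKM in TG5, far below the other HSD17B1TG mice, which had 2.03 to 2.78 FPKM. In WT, *Pgf* had 7.56 FPKM in WT3, and the ratio of *Pgf* to *Vegfa* was 0.222 in the same mouse, far above the other WT mice. The summed FPKM of the genes that VEGF induces was 402.6 in WT5, against at most 220.0 in the other WT mice. Of these genes, *F3* had 179 FPKM in WT5 against 33.4 to 73.2 in the other WT mice, and *Nr4a1* 51.8 against 2.46 to 5.36. The median of the list's log2 CPM, each gene centred on its mean over the mice, was 0.26 in WT5 and 0.19 in WT1. The summed FPKM of the capillary genes was 286 in WT5, against at most 173.9. The summed FPKM of the hypoxia genes was 1055 in WT4, against at most 682 in the other WT mice.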

How the results depend on the processing

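No paired analysis was possible because nothing in the labels links a mouse of one genotype to a mouse of the other, and the numbers used here only name mice. Of 506 values recomputed under an alternative, 318 kept their direction and side of the threshold (or stayed close, for counts), 147 counts moved by more than 1.5 times, 17 gained and 12 lost a call, and 12 changed sign. The cause of these changes was not tested.

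Over all genes, 1046 passed edgeR's test, 2811 DESeq2's, 3283 voom's, 2012 edgeR's without TG1 and TG4 (left out together after the data were seen) and 76 to 2387 with 1 mouse left out. By the thresholds of the study the counts were 721, 1572, 1748, 1349 and 65 to 1539. Members past the test numbered 0 in edgeR, 2 in DESeq2, 5 in voom, 1 with upper quartile normalization, 1 with no filter, 2 without TG1 and TG4, and 0 to 3 with 1 mouse left out. By the thresholds of the study these were 0, 2, 3, 1, 1, 2 and 0 to 2. Without TG1 and TG4, *Emcn* had a log2 fold change of -1.58 (adjusted p = 0.0528 in edgeR) and *Flt1* -0.80 (adjusted p = 0.0553 in edgeR). In that fit *Vegfa* had -0.92 (adjusted p = 0.194 in edgeR), *Vegfb* -0.51 (adjusted p = 0.138 in edgeR) and *Pgf* -0.71 (adjusted p = 0.686 in edgeR). The counts of genes past the test were as high or higher without WT4 in all 14 lists, and without TG4 they were 0 in 12 of the 14.

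*Vegfb* changed sign without TG2, TG3 or TG5 (log2 fold change 0.017, 0.047 and 0.021, range -0.215 to 0.047 with 1 mouse left out), *Vegfc* without TG1 and TG4 (-0.060), and *Pgf* in voom (0.13) and without WT3 (0.50, range -0.66 to 0.50). Both ratios that passed with all mice lost the call without any 1 HSD17B1TG mouse, but not without a WT mouse, at differences of 2.02 to 2.39 for *Flt4* to *Kdr* and 0.61 to 0.81 for *Pecam1* to *Cdh5*. The genotypes did not overlap at either ratio in any of these fits, and the lost call came with the coarse steps of the exact p. Without TG1 and TG4 the differences were 1.92 and 0.74 (adjusted exact p = 0.143 for each). With 3 mice against 5, even 2 pairs at the smallest p could not have passed. Signs changed for *Vegfa* to *Kdr* (0.14) and *Pgf* to *Vegfa* (-0.030) without TG1 and TG4, and with 1 mouse left out for *Flt1* to *Kdr* (-0.029 to 0.214) and *Emcn* to *Cdh5* (-0.14 to 0.30). With 5 mice per genotype, a difference in a member as variable as *Pgf* or *Vegfc* is not resolved.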
